A study of Mus musculus with 6 samples.

Results

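The genes described here encode leukocyte integrin chains and the adhesion molecules that leukocytes and vessel walls use to hold on to each other. They were taken by symbol: the integrin chains Itgal, Itgax, Itgb2, Itga4 and Itgb7, the endothelial ligands Icam1 and Vcam1, the selectins Selp and Sele, and the selectin ligand Selplg. The deposited table held all 10 of them among its 12969 genes, and all 10 passed the filter on low values, a mean of 1 RPKM or more, which left 12913 genes for the test. RPKM are reads scaled to gene length and to library depth, so levels of different genes can be set side by side. RNA came from infarct tissue of male mice about 12 weeks old, collected 4 days after the coronary artery had been tied off for good. A group of 3 mice was IRF3-/- (labelled Irf3KO), with no strain given in the sources used here, and a group of 3 was wild type, of the strain C57BL/6. Irf3 encodes a transcription factor that starts the interferon response, and the study asked how the infarct's transcripts differ when it is missing.

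Leukocytes leave the blood in steps. Selectins on activated platelets and endothelium catch the sugar-decorated protein encoded by Selplg and make cells roll, chemokines then switch integrins to a binding shape, and integrins hold the cells firmly by gripping immunoglobulin-type ligands on the vessel wall. Integrins are pairs of an alpha and a beta chain. The chain encoded by Itgb2 pairs with those of Itgal (giving LFA-1), Itgam (Mac-1) and Itgax (CD11c), and binds ICAM-1 among other ligands. The chain encoded by Itga4 pairs with that of Itgb1 or Itgb7 and binds VCAM-1. In an infarct these molecules take part in the entry of neutrophils and monocytes, which clear dead muscle before a scar forms.

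None of the 10 adhesion genes passed the test of knockout against wild type across all genes, limma on log2(RPKM + 1) with Benjamini-Hochberg adjustment and a threshold of 0.05. The smallest adjusted limma p among them was 0.556, for Vcam1, and 0 of the 10 had an unadjusted p under 0.05. Over all tested genes 46 fell and 19 rose, which is 0.503% called, and 1085 genes (8.40%) had an unadjusted p under 0.05. The log2 fold change was below 0 for 8 of the 10 genes, and for 59.3% of all genes. The median was -0.19, beside -0.09 over all genes. The groups overlapped in RPKM for 10 of 10 genes, while 18.4% of all genes had groups that did not overlap.

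The library labelled knockout replicate 2 stood apart in these genes. It was the lowest of the 6 libraries for 7 of the 10, as it was for 52.3% of all genes. Without it 4 of the 10 log2 fold changes were below 0 and the median was 0.07, beside 0.01 over all genes. At the other end wild-type replicate 1 was the highest library for 8 of the 10 genes, against 24.3% of all genes. Lars2, a locus that also gathers ribosomal RNA reads in many mouse libraries, took 2.48% of the reads in knockout replicate 2 and 0.132% to 0.701% in the others. The 12 monocyte and macrophage markers held, of 13 listed, summed to 1219 RPKM there, to 4585 and 3561 RPKM in knockout replicates 1 and 3, and to between 2297 and 4225 RPKM in the wild type, and none was listed at 0. Lyz2 made up 68.4% to 83.4% of these sums, and the other 11 markers summed to 386 RPKM in knockout replicate 2, 760 and 702 RPKM in knockout replicates 1 and 3 and 475 to 936 RPKM in the wild type. The part of these differences in the adhesion results was not tested, and the fold changes and ratio differences of the adhesion genes are also given without knockout replicate 2. In bulk tissue fewer cells of a type and less RNA per cell cannot be told apart.

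Depth ranged from 14.8 to 61.9 M reads per library, knockout replicate 3 being the deepest and the others reaching at most 20.8 M. The genotype labels were checked on 2 genes. Irf3 itself was read at 7.4, 8.74 and 7.68 RPKM in knockout replicates 1 to 3 with 13.76, 13.87 and 11.56 RPKM in wild-type replicates 1 to 3, so its transcript was lower in each knockout library but not gone. Its log2 fold change of -0.65 ± 0.18 (SE; -0.72 without knockout replicate 2) missed the threshold, at a limma adjusted p of 0.344. The sources used here do not say which part of the gene was deleted. Isg15, an interferon-induced ubiquitin-like protein, averaged 7.56 ± 1.26 RPKM in the knockout and 44.9 ± 7.11 RPKM in the wild type (SD, n = 3 each), a call at a log2 fold change of -2.42 ± 0.21 (SE, limma adjusted p = 0.00227), or -2.30 without knockout replicate 2.

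**Figure D1:**
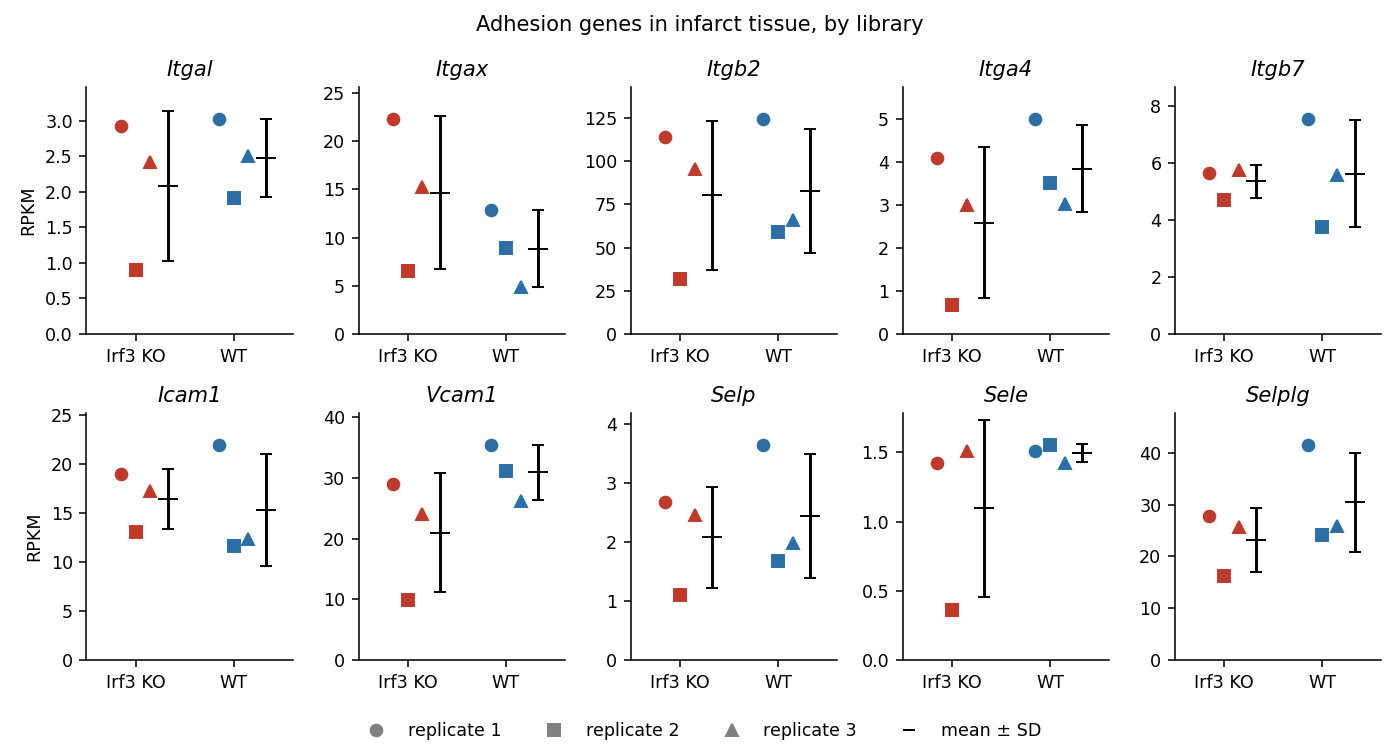
RPKM of the 10 adhesion genes in each library (vertical axis, from 0, one scale per gene), with knockout libraries in red, wild-type libraries in blue, the marker shape giving the replicate number and the bar the mean ± SD of each group. Knockout replicate 2 (red square) is the lowest point for 7 of the 10 genes, and the groups overlap in every panel.

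Promoter windows were read from RefSeq (GRCm38.p6) for the 6 adhesion genes that the table of windows holds: Itgax, Itga4, Itgb7, Icam1, Selp and Sele. No window was used for Itgal, Itgb2, Vcam1 and Selplg. Each window spans 250 bases before the annotated start of transcription and the 50 bases after it, 300 bases in all. They were searched on both strands for GAAANNGAAA, the core of the element that interferon regulatory factors bind, for TTCNNNGAA, the form that STAT dimers bind, and for GGAAATTCC, a palindromic form of the NF-kappaB site. The 250 bases before the start are shown for Icam1 and Sele, which hold matches, for Itgax, which had the largest positive difference of the 10 genes and holds none, and for Isg15, which fell, as the contrast. Capitals mark the matches, and each stretch is written 5′ to 3′ on the gene's own strand.
Icam1: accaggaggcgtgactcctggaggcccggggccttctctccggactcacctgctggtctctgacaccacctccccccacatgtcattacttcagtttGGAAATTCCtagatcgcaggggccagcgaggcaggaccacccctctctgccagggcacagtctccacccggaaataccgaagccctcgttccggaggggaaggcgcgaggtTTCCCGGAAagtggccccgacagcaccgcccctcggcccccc
Sele: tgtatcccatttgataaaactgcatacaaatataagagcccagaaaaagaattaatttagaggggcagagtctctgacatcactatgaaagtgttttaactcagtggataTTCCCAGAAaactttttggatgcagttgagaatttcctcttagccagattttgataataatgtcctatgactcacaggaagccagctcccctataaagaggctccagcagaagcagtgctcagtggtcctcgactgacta
Itgax: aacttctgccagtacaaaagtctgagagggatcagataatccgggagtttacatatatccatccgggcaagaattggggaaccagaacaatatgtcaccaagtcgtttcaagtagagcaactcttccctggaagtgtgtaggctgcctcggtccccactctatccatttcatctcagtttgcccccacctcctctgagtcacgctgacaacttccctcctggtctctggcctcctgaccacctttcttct
Isg15: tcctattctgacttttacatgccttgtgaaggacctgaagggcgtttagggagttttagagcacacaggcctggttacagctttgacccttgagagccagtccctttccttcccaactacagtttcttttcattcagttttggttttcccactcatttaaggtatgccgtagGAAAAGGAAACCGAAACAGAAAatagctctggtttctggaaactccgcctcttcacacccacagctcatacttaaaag

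The Icam1 stretch lies at chr9:21015690-21015939 on the plus strand, that of Sele at chr1:164047984-164048233 on the plus strand, that of Itgax at chr7:128129300-128129549 on the plus strand and that of Isg15 at chr4:156200819-156201068 on the minus strand. The Isg15 stretch holds 3 overlapping matches to GAAANNGAAA, which begin at positions -78, -72 and -66 from the start. The same letters were found in 0 of the 6 adhesion windows and in 3.44% of the 32851 windows of the table. Icam1 holds GGAAATTCC at position -153, a form found in 0.317% of all windows and in 1 of the 6. It also holds TTCNNNGAA at position -42, and Sele holds it at position -140. That form is its own reverse complement, so both strands give the same match, and it was found in 2 of the 6 adhesion windows and in 8.30% of all windows. No match shown overlaps one of another form. These are matches of letters only, and binding was not measured.

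Itgal and Itgax lie on mouse chromosome 7, as Itgam and Irf3 do, Itgb2 on 10, Itga4 on 2, Itgb7 on 15, Icam1 on 9, Vcam1 on 3 and Selplg on 5. Their levels spanned a wide range. Itgb2 was the most abundant at a mean of 81.7 ± 35.5 RPKM over the 6 libraries (SD), above the next gene, Selplg, in 6 of 6 libraries. Selplg (26.8 ± 8.23 RPKM) and Vcam1 (25.9 ± 8.76 RPKM) could not be ordered, Selplg being the higher in 3 of 6 libraries. Icam1 (15.9 ± 4.17 RPKM) was below Vcam1 in 5 of 6 libraries and above Itgax (11.76 ± 6.44 RPKM) in 5 of 6. Itgb7 (5.50 ± 1.25 RPKM) lay below Itgax in 5 of 6 libraries and above Itga4 in 6 of 6. Itga4 (3.22 ± 1.46 RPKM) was above Itgal in 5 of 6. Itgal (2.28 ± 0.784 RPKM) and Selp (2.26 ± 0.880 RPKM) changed places from library to library, Itgal being the higher in 3 of 6. Sele was the least abundant at 1.30 ± 0.461 RPKM, below Selp in 6 of 6 libraries.

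Itgb2, the shared beta chain, varied more within each genotype than between them. It was read at 113.84, 31.79 and 95.32 RPKM in knockout replicates 1 to 3 against 124.24, 58.82 and 66.08 RPKM in wild-type replicates 1 to 3. The groups overlapped, with wild-type replicate 1 at the top and knockout replicate 2 at the bottom. The means were 80.3 ± 43.0 and 83.0 ± 35.9 RPKM (SD, n = 3 per group), a log2 fold change of -0.16 ± 0.49 (SE, 95% interval -1.28 to 0.97, limma adjusted p = 0.883). Without knockout replicate 2 it was 0.40, and without wild-type replicate 1 it was 0.17, so the sign rested on single libraries. The order of the libraries for Itgb2 was close to that of the macrophage markers summed without Lyz2. Wild-type replicate 1, knockout replicate 1 and knockout replicate 3 were the highest of both, in that order, and knockout replicate 2 the lowest. Wild-type replicates 2 and 3 changed places. With Lyz2 in the sum, knockout replicate 1 was above wild-type replicate 1 as well. The part of macrophage content in the value of Itgb2 was not tested.

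Itgax encodes CD11c, the alpha chain that marks dendritic cells and is also made by many macrophages. Its values were 22.24, 6.49 and 15.25 RPKM in knockout replicates 1 to 3 and 12.86, 8.89 and 4.83 RPKM in the wild type. Knockout replicates 1 and 3 lay above all wild-type libraries, and replicate 2 lay among them. The means were 14.7 ± 7.89 and 8.86 ± 4.02 RPKM (SD, n = 3 per group), a log2 fold change of 0.61 ± 0.45 (SE, 95% interval -0.43 to 1.65, limma adjusted p = 0.571). With knockout replicate 2 left out the log2 fold change was 1.07 ± 0.35 (SE, 95% interval 0.22 to 1.91), with an unadjusted limma p of 0.0201 and an adjusted p of 0.473. It was then the only 1 of the 10 genes with the remaining knockout libraries above all wild-type libraries, beside 10.9% of all genes. None of the others had them below all wild-type libraries, a share that was not worked out over all genes. Without knockout replicate 1 the log2 fold change of Itgax was 0.25, and without wild-type replicate 3 it was 0.27.

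Itgal, the alpha chain of LFA-1, was read at 2.93, 0.90 and 2.42 RPKM in the knockout, against 3.02, 1.92 and 2.50 RPKM in the wild type. Knockout replicate 2 alone lay below the wild-type range. For Itgal the log2 fold change was -0.23 ± 0.29 (SE, 95% interval -0.89 to 0.43, limma adjusted p = 0.707), and 0.09 without that library. LFA-1 is found on nearly all leukocytes and is abundant on lymphocytes, and of the 10 T and NK cell markers listed the table held Cd4 and Gzma, which summed to 1.11 to 1.53 RPKM in the knockout and 2.47 to 2.81 RPKM in the wild type. Neither was listed at 0. Their part in the value of Itgal was not tested.

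Set against the shared beta chain, the alpha chains differed in direction. Over Itgb2, Itgax stood at log2 ratios of -2.35, -2.27 and -2.64 in knockout replicates 1 to 3 and at -3.26, -2.71 and -3.75 in the wild type (log2 of RPKM + 0.1 for each gene). Every knockout library lay above every wild-type library, knockout replicate 2 being the highest. The difference was 0.82 (-2.42 ± 0.19 against -3.24 ± 0.52, SD, n = 3 per group), with an exact permutation p of 0.1, two-sided, the smallest that 3 against 3 libraries can give, and 0.375 after adjustment over the 15 ratios computed. Of all genes set over Itgb2 in the same way, 0.627% had every knockout library above every wild-type library. Leaving out each library in turn gave differences of 0.57 to 1.08, with 0.75 without knockout replicate 2 and the lowest without wild-type replicate 3.

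In plain RPKM this is 19.5, 20.4 and 16 RPKM of Itgax per 100 RPKM of Itgb2 in the knockout libraries and 10.4, 15.1 and 7.31 in the wild type. Of the summed RPKM of the alpha chains Itgal, Itgam and Itgax, Itgax made up 27.4%, 33.2% and 24.6% in the knockout and 16.1%, 21.7% and 10.46% in the wild type. Itgam, the alpha chain of Mac-1 on neutrophils, monocytes and macrophages, made up 69.0%, 62.2% and 71.5% in the knockout and 80.1%, 73.6% and 84.1% in the wild type. The group means for Itgax were 28.4% ± 4.36 and 16.1% ± 5.61 (SD, n = 3 per group), with 26.0% in the knockout without replicate 2. Those for Itgam were 67.6% ± 4.78 and 79.3% ± 5.29, with 70.2% in the knockout without replicate 2. Itgal made up the remaining 3.61% to 5.41%, so the Itgam share falls where the Itgax share rises and is not a separate result. These shares describe the same libraries as the ratio and were worked out after its values were seen. The RPKM of Itgb2 was 1.40 to 1.63 times the summed alpha chains in the 6 libraries, so beta and alpha transcripts kept close to each other while the total ranged from 19.56 to 81.2 RPKM of alpha chains.

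Itgam over Itgb2 went the other way. Its log2 ratio was -1.02, -1.38 and -1.11 in the knockout and -0.96, -0.96 and -0.76 in the wild type, so each knockout library was below each wild-type one, replicate 1 by a narrow margin. The difference was -0.28 (-1.17 ± 0.19 against -0.89 ± 0.11, SD, n = 3 per group; exact permutation p = 0.1, adjusted p = 0.375), and 3.15% of all genes set over Itgb2 had every knockout library below every wild-type library. Without knockout replicate 2 the difference was -0.17. Itgal over Itgb2 overlapped between the groups, with a difference of -0.21 (exact permutation p = 0.4), or -0.29 without that library.

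The summed markers of cells that carry CD11c overlapped between the groups. The 6 dendritic cell markers held, of 8 listed, summed to 12.3 to 24.04 RPKM in the knockout and 16.59 to 24.18 RPKM in the wild type, and none was listed at 0 or called, while 1 had an unadjusted p under 0.05. That was Clec9a, at -0.48 ± 0.19 (SE, limma adjusted p = 0.556; -0.31 without knockout replicate 2), with each knockout value under each wild-type value. The macrophage sums also overlapped, with and without Lyz2. Of the 12 macrophage markers 0 were called by limma and 3 (Fcgr1, Ly6c2 and Mertk) had an unadjusted p under 0.05, and for Ly6c2 (-1.38 ± 0.32 SE, adjusted p = 0.203; -1.22 without that library) and Mertk (-0.89 ± 0.38 SE, adjusted p = 0.556; -0.42 without it) each knockout value was again under each wild-type value. Over all genes 18.4% had groups that did not overlap and 8.40% had an unadjusted limma p under 0.05. Log2 fold changes were above 0 for 2 macrophage markers and 1 dendritic cell marker, and below 0 for 10 and 5, beside 59.3% of all genes below 0. Without knockout replicate 2 the medians of the macrophage and dendritic cell markers were 0.006 and 0.012. The single markers were picked out after their values were seen, and their part in the values of Itgax was not tested. Over the pan-leukocyte genes Ptprc, Laptm5 and Coro1a, taken as their mean log2 value, Itgax stood at -1.47, -2.49 and -1.81 in the knockout and -2.58, -2.44 and -2.99 in the wild type. Knockout replicates 1 and 3 lay above the wild type and replicate 2 inside it. The difference was 0.74 (exact permutation p = 0.2, adjusted p = 0.5), and 1.03 without knockout replicate 2. Itgb2 over the same genes differed by -0.08 (exact permutation p = 1), or by 0.28 without it, and Itga4 over them by -0.76 (exact permutation p = 0.2), or by -0.23 without it.

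**Figure D2:**
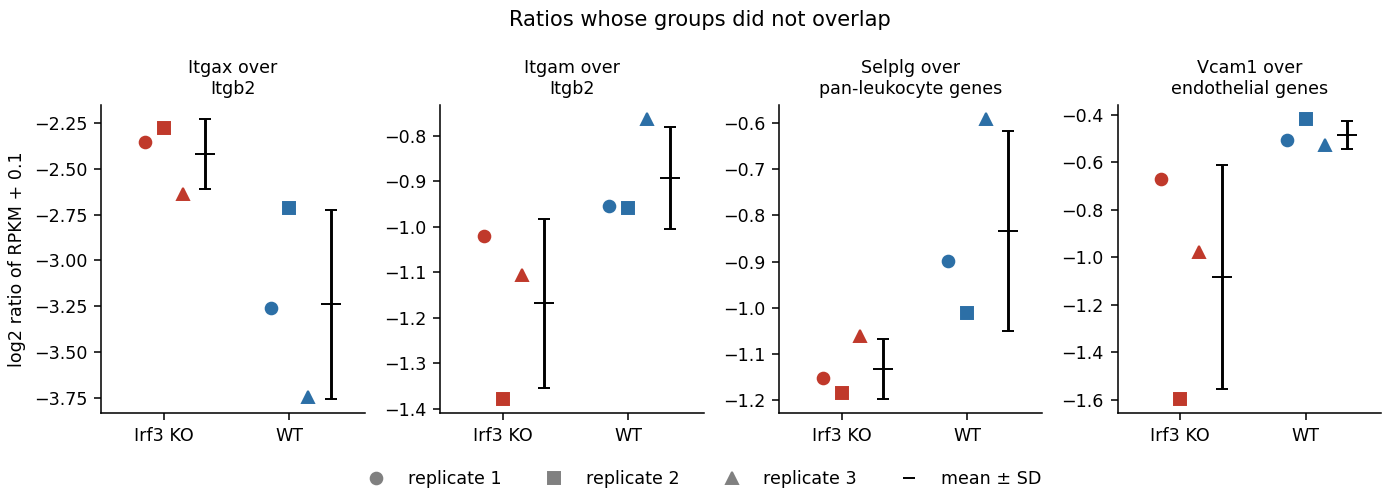
Log2 ratios of RPKM + 0.1 in each library (vertical axis, its range fitted to each panel) for the 4 of 15 ratios whose groups did not overlap, with the mean ± SD of each group beside the points. Itgax over Itgb2 is higher in every knockout library, and the other 3 ratios are lower in every knockout library, with knockout replicate 2 (red square) the lowest point of each of these 3.

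Itga4 and Itgb7 encode the chains of the integrin alpha4beta7, a receptor best known from gut-homing lymphocytes, and Itga4 also pairs with the widely expressed Itgb1 on monocytes and lymphocytes. Itga4 was read at 4.11, 0.67 and 3 RPKM in the knockout, against 5, 3.52 and 3.04 RPKM in the wild type. Knockout replicate 2 lay far below the rest, and replicate 3 just under the lowest wild-type library. This gave Itga4 a log2 fold change of -0.56 ± 0.39 (SE, 95% interval -1.47 to 0.35, limma adjusted p = 0.565), and -0.08 without knockout replicate 2.

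Itgb7 was read at 5.64, 4.70 and 5.76 RPKM in the knockout and 7.53, 3.77 and 5.59 RPKM in the wild type. The knockout libraries all lay within the wild-type range. On the log2 scale the fold change was -0.02 ± 0.24 (SE, 95% interval -0.58 to 0.54, limma adjusted p = 0.964), and its sign turned without knockout replicate 2 (0.06), without wild-type replicate 1 (0.18) and when each library was rescaled by a median-of-ratios factor (0.08). That rescaling moved the median log2 fold change of all genes by 0.11. The RPKM of Itga4 was 0.729, 0.143 and 0.521 times that of Itgb7 in the knockout and 0.664, 0.934 and 0.544 times in the wild type, so the chains parted in knockout replicate 2. Their log2 ratio differed by -0.82 between genotypes (exact permutation p = 0.4) and by -0.17 without that library.

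Among the ligands on the vessel wall, Vcam1, the ligand of the Itga4 integrins, was read at 28.98, 9.95 and 24.01 RPKM in the knockout and 35.34, 31.11 and 26.17 RPKM in the wild type. Replicates 2 and 3 of the knockout were under the wild-type range, and replicate 1 was inside it. The means were 21.0 ± 9.87 and 30.9 ± 4.59 RPKM (SD, n = 3 per group), a log2 fold change of -0.65 ± 0.36 (SE, 95% interval -1.48 to 0.18, limma adjusted p = 0.556), and -0.21 without knockout replicate 2. Its lowest adjusted p over 12 other ways of running the test was 0.249, with knockout replicate 1 left out.

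Set over the endothelial genes Pecam1, Cdh5, Tie1 and Egfl7, Vcam1 stood at log2 ratios of -0.67, -1.60 and -0.98 in the knockout and -0.51, -0.42 and -0.53 in the wild type. Each knockout library was below each wild-type one, with knockout replicate 2 the lowest. The difference was -0.60 (-1.08 ± 0.47 against -0.49 ± 0.057, SD, n = 3 per group; exact permutation p = 0.1, adjusted p = 0.375), and 11.3% of all genes set over these endothelial genes had every knockout library below every wild-type library. Without knockout replicate 2 the difference was -0.34. The 4 reference genes had log2 fold changes of -0.40, 0.03, 0.17 and -0.14. Of all 11 endothelial markers listed, 9 were below 0 and 2 above, with a median of -0.18, or -0.04 without knockout replicate 2. The lowest were Ptprb and Tek at -0.62 each and Erg at -0.59, near the -0.65 of Vcam1. Without that library they stood at -0.34, -0.13 and -0.27. Vcam1 was not set over Ptprb, Tek or Erg. Vcam1 is also made by macrophages and fibroblasts, so endothelium is not its only source. The 11 endothelial markers, all held, summed to 192.1 to 326.8 RPKM in the knockout and 265.0 to 376.6 RPKM in the wild type. The 6 fibroblast markers summed to 3034 to 4232 RPKM and 5023 to 5445 RPKM, without overlap. No marker of either list was at 0. Col3a1 and Col1a1 weighed most in the fibroblast sums, and the groups overlapped for Col1a1. All 6 fibroblast log2 fold changes were below 0, with a median of -0.58, or -0.32 without knockout replicate 2. Limma called 0 of them, and 1, Postn, had an unadjusted p under 0.05 (-1.27 ± 0.39 SE, adjusted p = 0.439). The part of fibroblast and endothelial transcripts in the value of Vcam1 was not tested.

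Icam1, the ligand of the Itgb2 integrins, was read at 19.00, 13.02 and 17.27 RPKM in the knockout and 21.90, 11.61 and 12.35 RPKM in the wild type. All knockout libraries lay within the wild-type range, and knockout replicate 2 was not its lowest library. For Icam1 the log2 fold change was 0.14 ± 0.27 (SE, 95% interval -0.49 to 0.76, limma adjusted p = 0.811), 0.29 without knockout replicate 2 and -0.02 without wild-type replicate 2. Over the endothelial genes the difference was 0.23 (exact permutation p = 0.4), or 0.18 without knockout replicate 2.

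The selectins lie next to each other on mouse chromosome 1 and were among the least abundant of the genes. Selp, the selectin stored in platelets and endothelial cells, was read at 2.68, 1.1 and 2.46 RPKM in the knockout and 3.64, 1.68 and 1.99 RPKM in the wild type. The groups overlapped, with knockout replicate 2 the lowest. Its log2 fold change was -0.16 ± 0.29 (SE, 95% interval -0.82 to 0.51, limma adjusted p = 0.795). It was 0.10 without knockout replicate 2 and 0.08 without wild-type replicate 1. The platelet markers held, Pf4 and Ppbp of 6 listed, summed to 197.1 to 252.1 RPKM in the knockout and 109.0 to 307.2 RPKM in the wild type.

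Sele, the selectin that endothelium makes after cytokine stimulation, was read at 1.42, 0.36 and 1.51 RPKM in the knockout and 1.51, 1.55 and 1.42 RPKM in the wild type. A single library, knockout replicate 2, stood below 5 libraries that were nearly alike. The value in that library rests on 19.0 reads, as worked out from RPKM, gene length and depth. In the same way it was 61.2 reads in knockout replicate 1 and 272 in knockout replicate 3, the deepest library. Wild-type replicates 1 to 3 had 83.0, 93.8 and 65.0 reads. For Sele the log2 fold change was -0.30 ± 0.25 (SE, 95% interval -0.87 to 0.27, limma adjusted p = 0.586), and -0.02 without knockout replicate 2. Over the endothelial genes Sele differed by -0.53 (exact permutation p = 0.3), and by -0.15 without that library.

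Selplg encodes PSGL-1, the leukocyte protein that selectins catch. It was read at 27.75, 16.18 and 25.67 RPKM in the knockout and 41.46, 24.05 and 25.80 RPKM in the wild type. Knockout replicate 2 lay below the wild-type range, and the other 2 knockout libraries lay near its lower end. Its log2 fold change was -0.37 ± 0.28 (SE, 95% interval -1.02 to 0.28, limma adjusted p = 0.576), and -0.14 without knockout replicate 2. Over the pan-leukocyte genes its log2 ratio was -1.15, -1.19 and -1.06 in the knockout and -0.90, -1.01 and -0.59 in the wild type, so the groups did not overlap. The difference was -0.30 (exact permutation p = 0.1, adjusted p = 0.375), -0.27 without knockout replicate 2 and -0.18 without wild-type replicate 3. Of all genes set over the pan-leukocyte genes, 4.96% had every knockout library below every wild-type library.

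**Figure D3:**
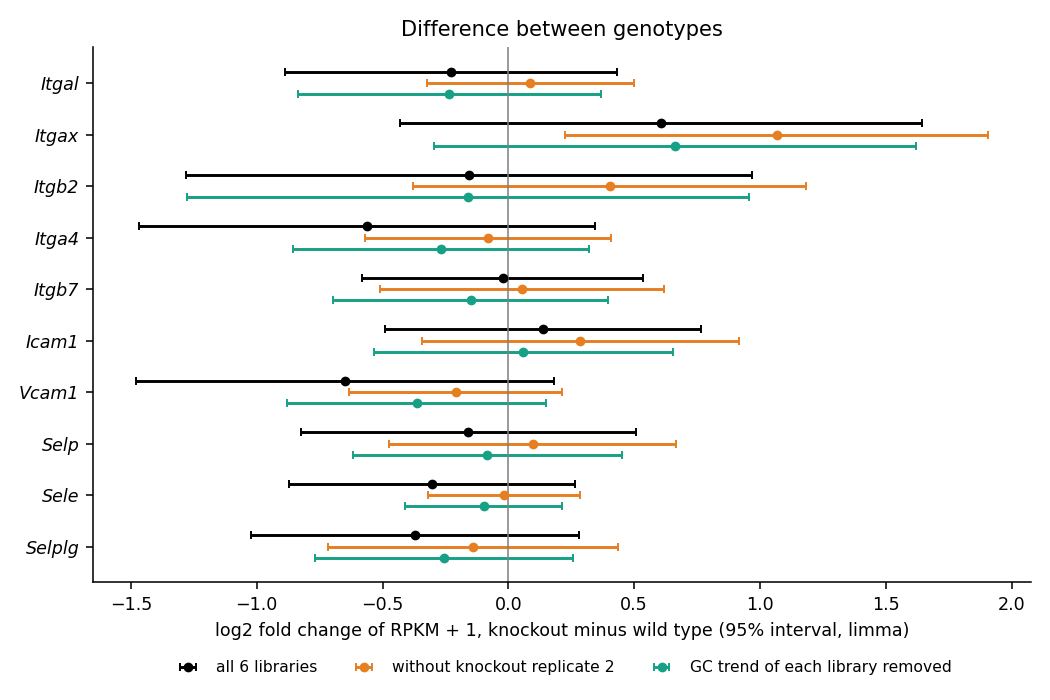
Log2 fold change of RPKM + 1 between knockout and wild type (horizontal axis) for each gene with its 95% interval from limma, over all 6 libraries (black), without knockout replicate 2 (orange) and with each library's trend on GC content removed (green). All intervals cover 0 except that of Itgax without knockout replicate 2, which runs from 0.22 to 1.91 and has an adjusted p of 0.473.

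How low the genes read in knockout replicate 2 went with their base composition. Against the mean of the other 5 libraries, Vcam1 (40.1% GC in its longest transcript) stood at a log2 difference of -1.45 and Itga4 (41.1% GC) at -1.49. Icam1 (55.4% GC) and Itgb7 (58.0% GC) stood at -0.28 and -0.20. All 10 genes stood below the median of tested genes of like GC content in that library. Itgb2 (53.1% GC) stood at -1.44, where the median of genes with 52% to 54% GC was -0.11. The remaining genes, with 47.5% to 53.2% GC, stood between -0.90 and -0.71. Across the 10 genes Spearman's rho between GC content and this difference was 0.685, and across 12707 tested genes of that library it was 0.562, a description over genes that share a library. Over the same 10 genes rho was -0.915 in wild-type replicate 2 and between -0.248 and 0.394 in the other 4 libraries.

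The same trend was present across all tested genes. Among tested genes with up to 45.0% GC the median deviation of knockout replicate 2 was -0.74, and among those above 54.5% it was 0.30. The rho across genes in the other libraries ran from -0.562 in knockout replicate 1 to 0.176 in knockout replicate 3. With a smooth trend on GC content removed from each library, a step chosen after the data were seen, 0 of the 10 genes were called and 8 of 10 log2 fold changes remained below 0. Vcam1 then stood at -0.36, Itga4 at -0.27 and Sele at -0.10, Itgb2 was still at -0.16 and Itgax at 0.66. Itgax over Itgb2 and Vcam1 over endothelial genes still did not overlap between the groups, at 0.89 and -0.22. Itgam over Itgb2 and Selplg over pan-leukocyte genes then overlapped, at -0.09 and -0.20, while Itgax and Itga4 over pan-leukocyte genes no longer overlapped, at 0.77 and -0.43. Of the 15 ratios 4 thus did not overlap, as before the removal. Each had an exact permutation p of 0.1, the smallest that 3 against 3 libraries can give. The share of all genes with such a separation was not worked out with GC trends removed.

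**Figure D4:**
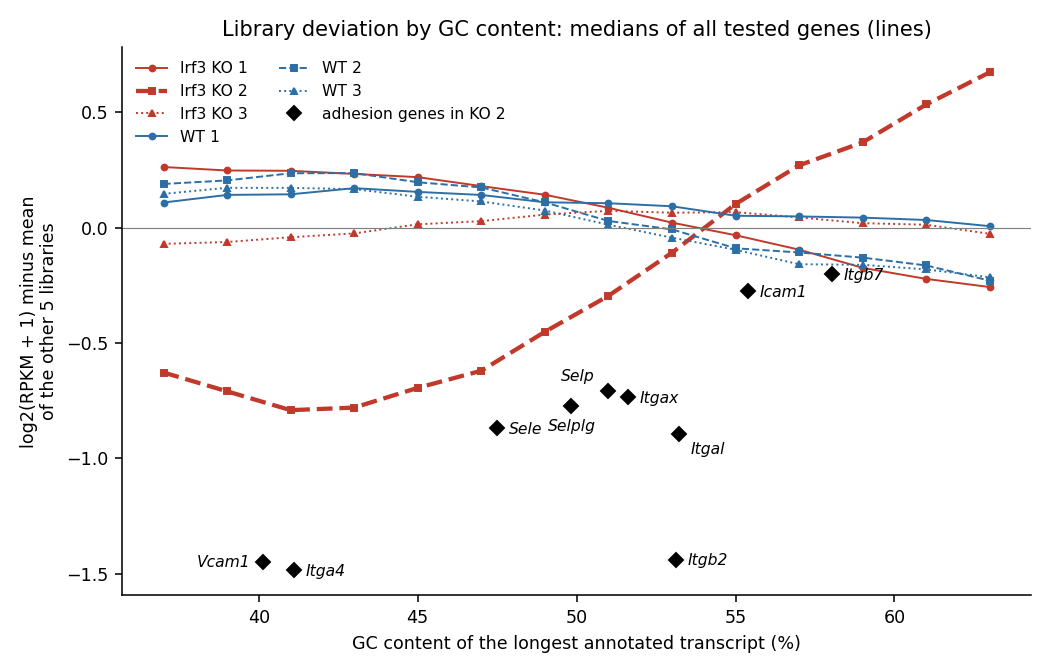
Deviation of each library from the mean of the other 5 (vertical axis, log2 of RPKM + 1) against GC content of the longest annotated transcript (horizontal axis, percent), as medians of all tested genes in GC bins of at least 100 genes (lines), with the 10 adhesion genes in knockout replicate 2 as black diamonds. The line of knockout replicate 2 lies below 0 at low GC content and above 0 at high GC content, and all 10 diamonds lie below it.

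Other genes of the adhesion cascade were read from lists chosen for their roles, and limma called 0 of their 47 tested members, of which 1 had an unadjusted p under 0.05. The groups did not overlap in RPKM for 6 of the 47 (12.8%, beside 18.4% of all genes), with Icam2 higher in the knockout and Itgb8, F11r, Jam3, Glg1 and C1galt1 lower. The last 4 are named only because they were in this count. Of the other integrin chains 10 were tested, 9 with a log2 fold change below 0, and the median was -0.40, or -0.19 without knockout replicate 2. The smallest p-values in this list belonged to Itga1, a collagen receptor chain, at -0.82 ± 0.38, and Itgb8, which takes part in activating TGF-beta, at -0.43 ± 0.21 (SE, limma adjusted p = 0.556 each). Without knockout replicate 2 they stood at -0.35 and -0.22. Itgb1, the partner of Itga4, was at -0.38 ± 0.31 (limma adjusted p = 0.582), and Itgam at -0.42 ± 0.53 (limma adjusted p = 0.711), and without that library they stood at -0.12 and 0.23.

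Of the other rolling and endothelial adhesion genes 15 were tested, 10 with a value below 0, with a median of -0.30, or 0.10 without knockout replicate 2. Icam2, a second Itgb2 ligand that resting endothelium carries, was the only one of these with an unadjusted limma p under 0.05 (0.0449, adjusted p = 0.556). It was read at 24.64, 20.91 and 24.29 RPKM in the knockout and 20.28, 13.57 and 15.80 RPKM in the wild type, so every knockout library lay above every wild-type library, knockout replicate 2 by a small margin, at a log2 fold change of 0.48 ± 0.20 (SE), or 0.55 without that library.

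The 12 genes tested that switch integrins on had a median of -0.11, or 0.11 without knockout replicate 2, and 8 values below 0. Fyb, an adaptor protein of this step, was at -0.74 ± 0.37 (SE, limma adjusted p = 0.556) and Rasgrp2, an activator of the small GTPase Rap, at -0.23 ± 0.21 (SE, limma adjusted p = 0.617). Without knockout replicate 2 they were at -0.36 and -0.10. The 10 tested enzymes that build selectin ligands had a median of -0.14, or 0.03 without knockout replicate 2, with 6 values below 0. St3gal3, a sialyltransferase, was at 0.84 ± 0.37 and Tpst2, which adds sulfate to tyrosines, at 0.36 ± 0.21 (SE, limma adjusted p = 0.556 each), and these were 0.40 and 0.21 without that library. Itgad, Itgae, Itga2, Itga2b, Icam4, Icam5, Madcam1, Glycam1, Cd99, Skap1, Ilk and Fut7 were listed and are not analysed here.

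The genes whose library profile was closest to that of Itgb2 were Mmp19, Msr1, Pilra, Plek and Dhrs9. Their root mean square difference from Itgb2 over the 6 libraries was 0.0584 to 0.129 on the log2 scale, against a median of 0.615 over the 2373 genes compared. Only genes whose own SD over the libraries was at least 0.5 on the log2 scale were compared. Closest to Vcam1 were Rbms1, Abcg3, Slc39a10, Chek2 and Ncl, at 0.0458 to 0.0559 against a median of 0.394. The GC content of the 5 genes closest to Vcam1 was 42.5% to 46.4%. That of the 5 closest to Itgb2 was 38.4% to 49.0%, while Itgb2 has 53.1%. In both ranges the median gene was low in knockout replicate 2.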

How the data were processed

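Per the labels, total RNA of infarct tissue was sequenced from 3 Irf3 knockout and 3 wild-type mice. The values the authors deposited are RPKM, rounded to 2 decimals. The submitters' processing notes name STAR 2.3.0, HTSeq 0.6.0, edgeR 3.8.6, Picard 1.100 and SAMtools 0.1.18.0, and the build NCBIM37 (mm9). The sources used here give no settings, no strand and no rule for reads with several map positions. In 5 lines a gene name cut across cells was repaired. Depth was worked out from the steps of low RPKM values multiplied by the deposited gene lengths: 64 to 287 values per library, of which 100% lay within 0.2 reads of a whole number. Rounding hides whole reads for many genes, so counts were not modelled.

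The filter kept genes whose mean reached 1 RPKM. limma 3.58.1, run in R 4.3.3, was fitted to log2(RPKM + 1) (mean-variance trend, two-sided, Benjamini-Hochberg over 12913 genes, threshold 0.05). This scale understates changes of low genes. Ratios used log2(RPKM + 0.1) and exact permutation tests over libraries. The fit was tested on simulated data. The labels do not say more of the animals, so a p-value here reflects the spread between 3 samples per group, which may in part be technical. GC content, for 12707 genes, came from GENCODE M21, and chromosomes and promoter windows from RefSeq (GRCm38), and no coordinates were carried between builds. The genes, gene lists and ratios were chosen with earlier results of these data known, by rules that name all 10 genes, the 2 smallest p-values in each other adhesion list, the reference genes of the ratios, the 5 nearest profiles of Itgb2 and Vcam1, and Irf3 and Isg15. A gene named by this rule is not reported here. Alternatives were another pseudocount, no filter on low values, median-of-ratios scaling, no variance trend, a block on replicate number, each library left out and, added after seeing the data, removal of GC trends.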

Additional observations from a re-analysis of the deposited data

How the results depend on the processing

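The count of called adhesion genes and that of other adhesion genes stayed at 0 in all 12 alternatives, and the adjusted limma p of the 10 genes ran from 0.249 to 0.992 over them. The number of genes called over the whole table moved from 65 to 250 with the replicate block, to 108 with GC trends removed and to between 21 and 96 when 1 library was left out. Same-numbered libraries did not deviate together (correlations of 0.129, -0.098 and -0.102 for numbers 1 to 3), so the replicate block joins libraries that share only a number. Among the alternative values of the 10 genes 111 kept their sign and side of the threshold and 9 turned in sign. Itgb7 turned to 0.084 with median-of-ratios scaling. With 1 library left out, log2 fold changes ran from -0.44 to 0.087 for Itgal, from -0.50 to 0.40 for Itgb2, from -0.24 to 0.18 for Itgb7, from -0.020 to 0.41 for Icam1 and from -0.32 to 0.10 for Selp. Of the alternative ratio values 127 kept theirs and 8 turned. Itgb7 over pan-leukocyte genes turned to -0.11 with GC trends removed. With 1 library left out the differences ran from -0.76 to 0.025 for Itga4 over Itgb1, from -0.27 to 0.28 for Itgb2 and from -0.13 to 0.31 for Itgb7 over pan-leukocyte genes, and from -0.35 to 0.054 for Selp over endothelial genes. The cause of these turns was not tested. With 3 libraries per group an exact test cannot go below p = 0.1, so no ratio could pass, and Sele in knockout replicate 2 rests on 19.0 reads.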

Other observations

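The pan-leukocyte reference genes parted from each other in knockout replicate 2, which bears on every ratio set over them. Ptprc, the gene of CD45 (39.4% GC), was read there at 5 RPKM and Coro1a, a leukocyte actin regulator (58.0% GC), at 104.63 RPKM. The RPKM of Ptprc was 0.0478 times that of Coro1a in that library, 0.448 and 0.301 times in knockout replicates 1 and 3, and 0.427 to 0.651 times in the wild type. Laptm5, a lysosomal protein of blood cells (56.0% GC), stood at 95.05 RPKM there. The 3 genes together summed to 204.7 RPKM in knockout replicate 2 and to 194.2 and 204.8 RPKM in the other knockout libraries. Coro1a and Laptm5 made up nearly all of that sum there, and the summed macrophage markers were at their lowest in the same library. The endothelial reference genes also parted in knockout replicate 2, which bears on the ratios set over them. Against the mean of the other 5 libraries, Pecam1 (50.2% GC) stood at a log2 difference of -1.37 and Cdh5 (52.2% GC) at -0.65. Egfl7 (57.1% GC) stood at -0.30 and Tie1 (57.6% GC) at 0.17. The part of base composition and of leukocyte content in these values was not tested.

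Wild-type replicate 1, the highest library for 8 of the 10 adhesion genes, also had the lowest cardiomyocyte markers. The median of the 8 cardiomyocyte genes, relative to the wild-type mean, was -0.82 there, 0.14 and 0.77 in the other wild-type libraries and 0.42 to 0.76 in the knockout. The pan-leukocyte median was 0.63 in wild-type replicate 1. The excess of the adhesion genes in that library over the mean of the other 5 ran from 0.19 for Sele to 0.88 for Itgb2 on the log2 scale. The part of tissue makeup in these values was not tested.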
